A study of Ovis aries with 24 samples.

Results

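Oligodendrocytes wrap axons in myelin, a compacted membrane rich in a small set of structural proteins and in galactolipids that are made by dedicated enzymes. The cells pass from dividing precursors through a committed premyelinating stage to mature cells, under transcription factors that switch on the myelin genes, while Notch and its effectors hold precursors back. The white matter beside the lateral ventricles is where this lineage is exposed to injury in preterm birth, because myelination there is only beginning. The genes described here are a list of 32 myelin and mature oligodendrocyte names chosen by function, of which 30 were found among the 27716 genes of the table for periventricular white matter (PVWM). MAL and NKX6-2 were not among its symbols. The list holds structural proteins of the myelin membrane, enzymes of myelin lipid, transcription factors, and other genes that mark the mature cell.

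Messenger RNA of PVWM was measured by RNA sequencing in 12 preterm lambs, in 3 groups of 4 animals. Unventilated lambs received no ventilation and no agent. Surfactant lambs were mechanically ventilated and received poractant alpha, a lung surfactant, into the trachea at 2.5 mL/kg. Budesonide lambs were ventilated and received that surfactant dose together with 0.25 mg/kg of the glucocorticoid budesonide. Both ventilated groups therefore share ventilation and surfactant, and the surfactant group enters 2 of the 3 comparisons. Unventilated lambs were at 127 or 128 days of gestation, 2 of them labelled male, and animal 061 had no sex given. In each ventilated group 1 male was at 127 days and 3 females were at 126 days, so age and ventilation cannot be fully told apart. Each animal gave 1 PVWM library, and the whole block of tissue was measured. In such bulk tissue, fewer cells of a type and less RNA per cell cannot be told apart.

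Library totals lay between 14.9 and 17.5 M (1e6) counts and 21672 to 22356 genes had counts, so depth differed little. Levels are given as counts per 1e6 counts (CPM) after scaling by trimmed mean of M values. They are compared between animals and not between genes, because gene lengths were not used. Lists of cell type markers were summed in each animal to describe the tissue blocks. The lists hold different genes, so their sums were not set against each other and do not check the tissue label. The members summed to 1044 to 12973 CPM per animal, the neuron list to 10205 to 12310 CPM, and the astrocyte list to 5344 to 8050 CPM. Schwann cell genes, which mark peripheral nerve myelin, summed to 29.0 to 48.4 CPM.

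The summed level of the members did not divide the animals by treatment. One animal stood far above all others in this sum, and the sums of the remaining 11 overlapped between the 3 groups. Some single members, such as PADI2 and CRYAB, had ranges that did not overlap between groups, as given below. In surfactant animal 051 the 30 members held 1.28% of all counts in the library. The lowest shares were 0.103% in unventilated animal 060, 0.121% in surfactant animal 049 and 0.149% in budesonide animal 048. The remaining 8 libraries, from all 3 groups, had 0.222 to 0.313%. Animal 051 was the highest of the 12 for 26 of the 30 members. Of the 18616 genes that passed a filter on low counts, 14.9% were highest in that animal. Animal 060 was the lowest for 12 members and animal 049 for 10. For 14 members these 2 animals were the lowest pair. The high and the low animal of the surfactant group were both labelled female and both at 126 days, and their libraries had 16.3 and 14.9 M counts.

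The structural proteins of myelin showed the spread most plainly. MBP, myelin basic protein, which holds the inner faces of the compacted membrane together, had 793, 751, 254 and 736 CPM in unventilated animals 057, 058, 060 and 061. It had 749, 942, 303 and 5390.2 CPM in surfactant animals 007, 032, 049 and 051. Budesonide animals 031, 048, 050 and 054 had 698, 385, 695 and 1048 CPM. The 3 groups overlapped, and only animal 051 stood above them all, at 7.33 times the median of the other 11. MOBP, another compact myelin protein, had 410.0, 414, 106 and 380.0 CPM in the unventilated animals, in the same order. The surfactant animals had 385, 533, 126 and 3302 CPM, and the budesonide animals 417, 252, 454 and 645 CPM. Again animal 051 was highest, and animals 060 and 049 were the 2 lowest.

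MAG, the adhesion protein of the membrane next to the axon, had 59.2, 56.0, 14.8 and 49.5 CPM in unventilated animals. It had 62.2, 76.1, 21.6 and 344 CPM in surfactant and 48.3, 30.7, 60.7 and 84.6 CPM in budesonide animals. CNP, an early myelin enzyme kept with the structural proteins here, ranged from 115 to 331 CPM in 11 animals and reached 1152 CPM in animal 051. MOG, a protein of the outermost lamella, ranged from 3.82 to 18.6 CPM in 11 animals and reached 63.9 CPM in animal 051. CLDN11, which forms the tight junctions of the sheath, departed from this order at the low end. It had 81.3, 105, 40.9 and 102 CPM in unventilated animals, 103, 129, 110 and 577 CPM in surfactant animals and 166, 82.4, 111 and 160.4 CPM in budesonide animals. For CLDN11, animal 060 was lowest while animal 049 was sixth from the top.

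Among the remaining membrane proteins, ERMN, a cytoskeletal protein of late oligodendrocytes, reached 92.4 CPM in animal 051 against 3.37 to 15.8 CPM in the others. HAPLN2, a link protein of the matrix at nodes of Ranvier, reached 11.7 CPM against 1.08 to 2.64 CPM. OPALIN, a membrane protein of mature oligodendrocytes, reached 73.6 CPM against 4.58 to 24.7 CPM. GJB1, the gap junction protein connexin 32, was low, at 0.135 to 1.35 CPM in 11 animals and 7.61 CPM in animal 051. PLLP, plasmolipin, reached 75.5 CPM against 14.1 to 33.7 CPM. TSPAN2, a tetraspanin of the oligodendrocyte lineage, was the exception. It had 24.7, 21.6, 32.2 and 27.3 CPM in unventilated animals, 26.3, 18.9, 13.8 and 14.9 CPM in surfactant animals and 18.4, 26.4, 18.3 and 15.5 CPM in budesonide animals. Animal 060, lowest for 12 members, was highest for TSPAN2, and animal 051 was next to lowest.

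**Figure D1:**
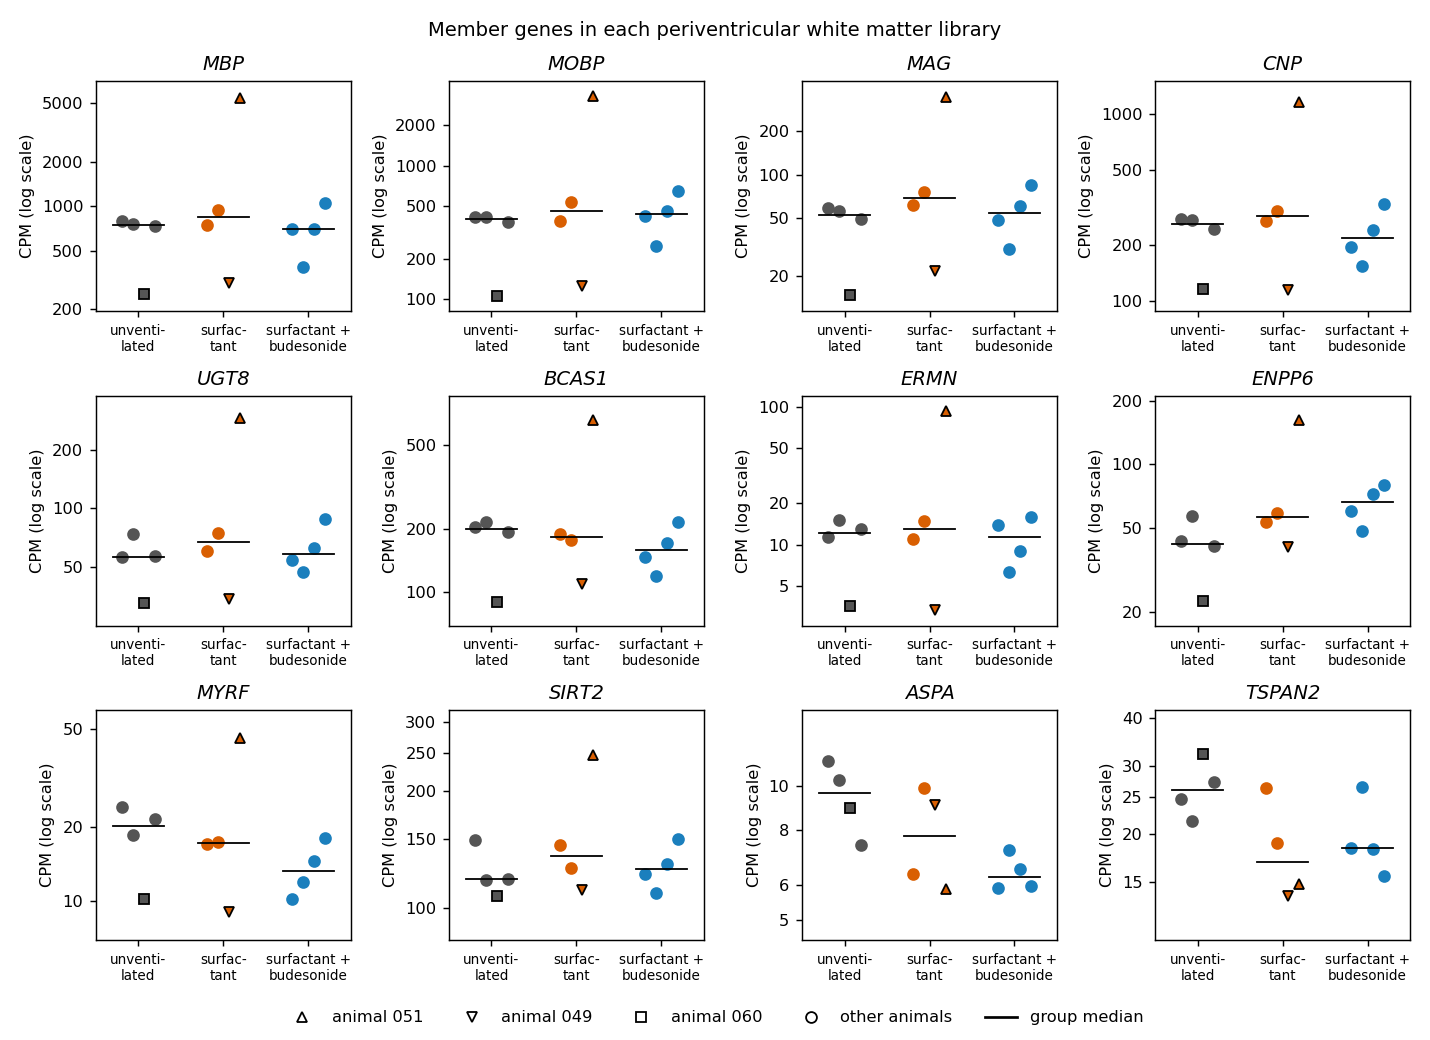
Level of 12 members in each of the 12 PVWM libraries, in CPM on a log axis, by group; each point is 1 animal and bars are group medians. Surfactant animal 051 lies above all others for 10 of the 12 genes shown, with 5390.2 CPM of MBP, while ASPA and TSPAN2 depart from that pattern.

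The enzymes of myelin lipid followed the structural proteins with smaller folds. UGT8, which makes galactosylceramide, had 55.8, 73.3, 32.3 and 56.7 CPM in unventilated animals. It had 60.2, 74.5, 34.0 and 293 CPM in surfactant and 54.0, 46.6, 62.6 and 87.9 CPM in budesonide animals. FA2H, the fatty acid hydroxylase that supplies hydroxylated galactolipids, reached 15.2 CPM in animal 051 against 2.56 to 5.39 CPM in the others. GAL3ST1, which adds the sulphate of sulphatide, had 5.28, 3.34, 2.69 and 4.46 CPM in unventilated animals. It had 3.03, 2.63, 2.49 and 7.11 CPM in surfactant and 2.21, 1.56, 2.71 and 2.64 CPM in budesonide animals. Apart from animal 051, the upper end of GAL3ST1 was held by 3 unventilated animals.

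ENPP6, a choline phosphodiesterase of newly formed oligodendrocytes, had 43.4, 57.1, 22.5 and 40.9 CPM in unventilated animals. It had 53.6, 58.6, 40.5 and 162 CPM in surfactant and 59.9, 48.3, 72.3 and 80.2 CPM in budesonide animals. ENPP2, autotaxin, which makes lysophosphatidic acid, varied little, at 40.6 to 58.5 CPM in 11 animals and 124 CPM in animal 051. ASPA, which frees acetate for lipid synthesis from N-acetylaspartate, went the other way in animal 051. It had 11.4, 10.3, 8.96 and 7.37 CPM in unventilated animals, 6.37, 9.92, 9.10 and 5.87 CPM in surfactant animals and 5.92, 7.18, 6.52 and 5.97 CPM in budesonide animals. Animal 051 had the lowest ASPA of all 12, and every budesonide animal was below every unventilated one.

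Both transcription factors found in the table were highest in animal 051, with smaller folds than most membrane proteins. SOX10, which drives the lineage from precursor to mature cell, had 52.2, 45.8, 28.1 and 49.3 CPM in unventilated animals. It had 38.0, 33.9, 35.5 and 73.3 CPM in surfactant and 24.2, 26.9, 25.1 and 29.7 CPM in budesonide animals. The highest budesonide animal was below the lowest surfactant animal, and 3 of the 4 unventilated animals were above all budesonide animals. MYRF, which switches on myelin genes at the end of differentiation, had 24.1, 18.6, 10.2 and 21.6 CPM in unventilated animals. It had 16.99, 17.4, 9.03 and 45.7 CPM in surfactant and 10.2, 11.99, 14.5 and 18.0 CPM in budesonide animals.

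The last group holds enzymes and other genes enriched in oligodendrocytes. BCAS1, a marker of cells that are starting to myelinate, had 204, 214, 90.0 and 193 CPM in unventilated animals. It had 189, 176, 109 and 658 CPM in surfactant and 146, 119, 171 and 214 CPM in budesonide animals. CRYAB, the small heat shock protein alpha-B crystallin, had 22.2, 20.5, 8.58 and 18.1 CPM in unventilated animals. It had 23.9, 22.8, 23.04 and 81.6 CPM in surfactant and 13.7, 12.2, 19.3 and 13.7 CPM in budesonide animals. Every surfactant animal had more CRYAB than every unventilated and every budesonide animal, animal 051 by a wide margin and the other 3 by a narrow one. PADI2, which citrullinates myelin basic protein, had 10.2, 11.8, 10.97 and 10.4 CPM in unventilated animals. It had 9.83, 14.9, 13.8 and 20.7 CPM in surfactant and 13.997, 16.3, 18.1 and 33.9 CPM in budesonide animals. All budesonide animals were above all unventilated ones, and the highest value was in budesonide animal 054.

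KLK6, a secreted protease of mature oligodendrocytes, was almost confined to 1 library. It had 299 counts, or 18.7 CPM, in animal 051 and 0 to 10 counts, at most 0.581 CPM, in the other 11. Animal 060 had 0 counts, which at its depth allows up to 0.188 CPM. KLK6 was the 1 member that did not pass the filter on low counts, so it entered no test. TMEM125, a membrane protein with high expression in oligodendrocytes, reached 18.3 CPM in animal 051 against 0.606 to 3.56 CPM, and CARNS1, carnosine synthase, reached 6.24 CPM against 0.564 to 2.01 CPM. SIRT2, a tubulin deacetylase of the myelin sheath, reached 248 CPM against 107 to 150.0 CPM. TMEM63A, a mechanosensitive channel, reached 11.7 CPM against 3.65 to 7.55 CPM, and NINJ2, an adhesion protein, 8.30 CPM against 2.76 to 7.22 CPM. QDPR, which regenerates tetrahydrobiopterin, stayed between 39.7 and 73.8 CPM, with animal 051 at rank 3.

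Set against the median of the other 11 animals, the level in animal 051 was more than 2 times higher for 24 of the 29 members that passed the filter, and more than 4 times higher for 15. Over all 18616 genes that passed, 2.40% were more than 2 times higher in that animal and 0.467% more than 4 times. The median over the 29 members was 4.22 times and over all genes 1.01 times. The membrane proteins had a median of 5.83 times over 12 genes, the lipid group 2.84 times over 6, the transcription factors 2.43 times over 2, and the enzymes and other genes 2.08 times over the 9 that passed. The largest were ERMN at 8.09, HAPLN2 at 8.07 and MOBP at 8.05 times. These values describe 1 library and have no test.

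**Figure D2:**
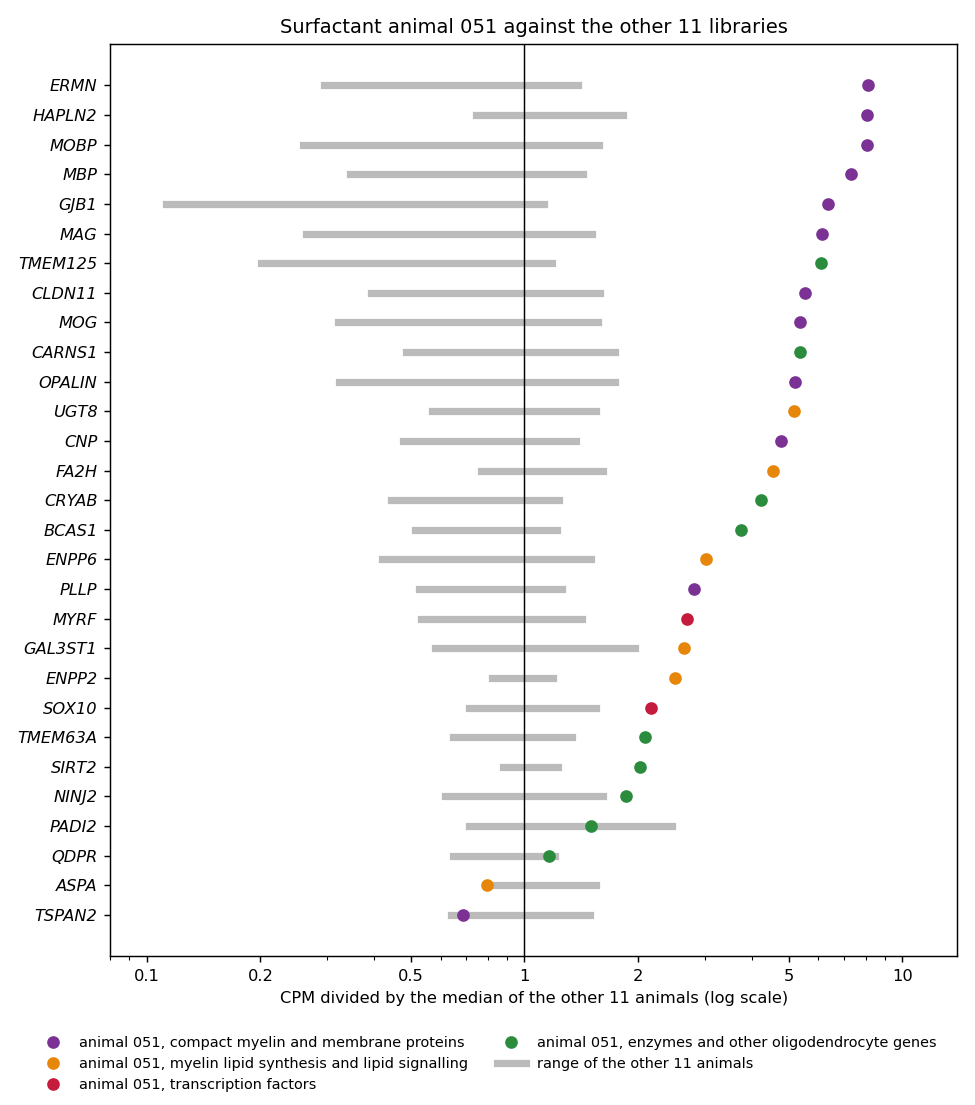
Level in surfactant animal 051 divided by the median of the other 11 PVWM libraries for the 29 members that passed the filter, on a log axis; grey bars span the other 11 animals. Points reach from 0.687 for TSPAN2 to 8.09 for ERMN, and for 25 genes they lie beyond the grey bar on the high side.

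Genes outside the list show how far that pattern reached. An entry listed under a locus number that RefSeq names MAL, a raft protein of myelin, ranged from 7.01 to 32.7 CPM and was highest in animal 051. In a further list of 39 myelin and oligodendrocyte genes, 17 were more than 2 times the median of the other animals in animal 051. Of the 39, 30 were highest there, against 14.9% of all genes, and the median was 1.80 times.

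Summed over their list, genes of committed and premyelinating cells were also highest in animal 051, by a small margin, while precursor genes were lowest. The 20 committed stage genes summed to 1309 CPM there against 1071 to 1284 CPM in the others. Of these 20, 1 was more than 2 times higher in that animal, with a median of 1.22 times. Singly, 5 of the 20 were highest of the 12 there, against 14.9% of all genes, and 3 were lowest. GPR17, a receptor of that stage, had 246 CPM against 145 to 219 CPM in the others, or 1.29 times their median. The 18 precursor genes summed to 3222 CPM in animal 051, the lowest of the 12, against 3659 to 4297 CPM. Of these 18 genes none was more than 2 times higher, 7 were lowest of the 12 in that animal, and the median was 0.784 times. PDGFRA, the growth factor receptor of precursors, was at 190.2 CPM against 197 to 306 CPM in the others, and OLIG2, a factor of the whole lineage, at 13.8 CPM against 10.5 to 24.9 CPM. OLIG1, its relative, was not among the table's symbols.

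Markers of other cell types moved with animal 051 in part. Its ependymal and choroid plexus list, genes of the ventricle lining, summed over 12 genes to 58.9 CPM against 86.1 to 231 CPM in the other animals. The median was 0.536 times over the 10 of these genes that passed the filter. The Schwann cell list summed to 36.2 CPM, within the 29.0 to 48.4 CPM of the others, with a median of 0.598 times over 7 genes. The neuron list had 10479 CPM against 10205 to 12310 CPM, the astrocyte list 7106 CPM against 5344 to 8050 CPM, and the microglia list 233 CPM against 129 to 315 CPM. In low animal 049 the endothelial and mural list was the highest of the 12, at 808 CPM against 392 to 552 CPM in the others. The share of white matter in each tissue block was not measured, and its part in these values was not tested.

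**Figure D3:**
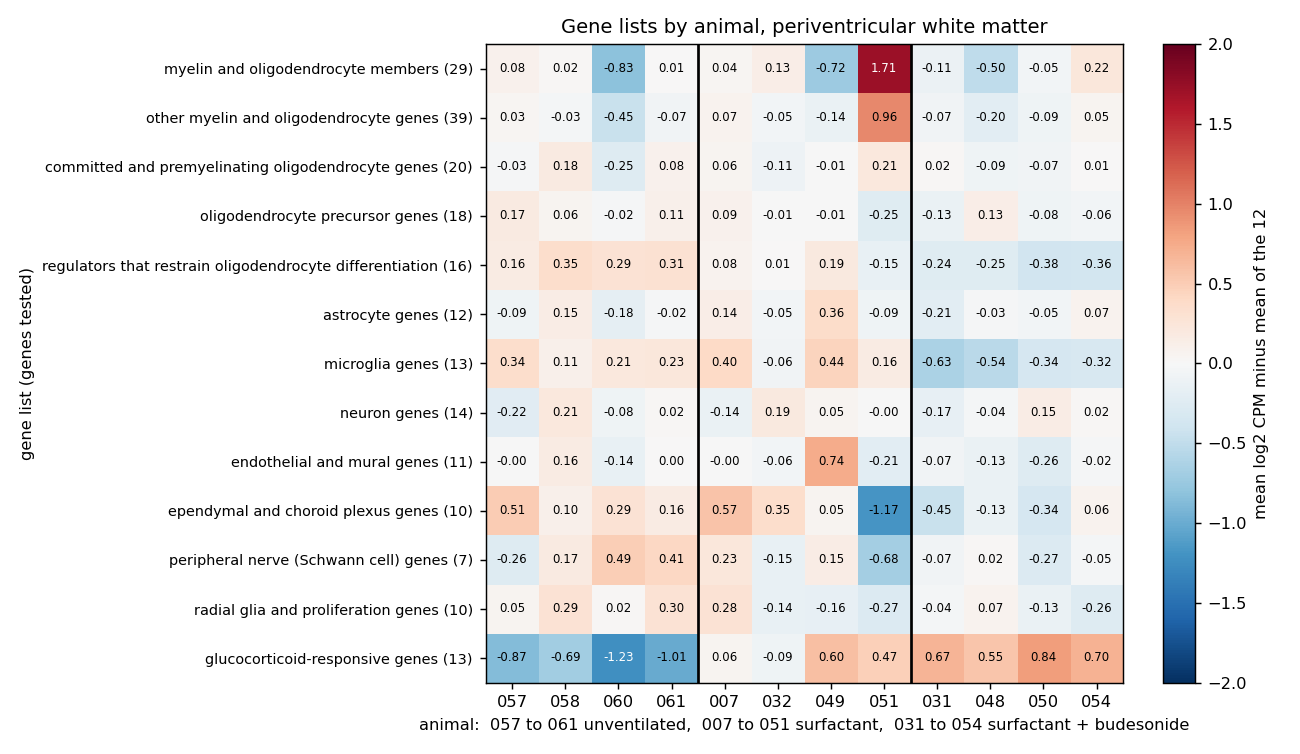
Mean log2 CPM of each gene list in each PVWM library minus its mean over the 12 libraries; numbers in brackets are genes tested. Column 051 is at 1.71 for the members and 0.96 for the other myelin genes, against -0.25 for precursor genes and -1.17 for ependymal and choroid plexus genes.

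Ventilation with surfactant was compared with no ventilation to ask what ventilation changed in these genes. Of the 29 members tested, 0 were called by edgeR at an adjusted p under 0.05, against 2.05% of all genes. At an unadjusted p under 0.05 there were 10, and DESeq2 and limma-voom with sample weights also called 0. Here and below, counts at an unadjusted p or by these other methods have no share over all genes beside them. They can therefore not be set against that share. The log2 difference was positive for 25 members, with a median of 0.94 against 0.02 over all genes. The smallest adjusted p was 0.197, for CLDN11, at a log2 difference of 1.48 ± 0.52 (SE, n = 4 and 4). MBP differed by 1.54 ± 0.70 with adjusted p = 0.333 in edgeR, and MOBP by 1.73 ± 0.78 with adjusted p = 0.327.

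Most of these positive values rested on animal 051. Without it the median over the 29 members was 0.04, MBP differed by 0.07 ± 0.44 and MOBP by 0.08 ± 0.50 on the log2 scale. The difference became smaller in size for 25 of the 29. CLDN11 kept 0.47 ± 0.30 (adjusted p = 0.597 in edgeR) and NINJ2 0.47 ± 0.28 (adjusted p = 0.578). The count called by edgeR was again 0, against 1.42% of all genes, with 1 member at an unadjusted p under 0.05. The sign changed for 9 members. The SE was large with and without that animal: its median over the members was 0.45 and 0.29, against 0.15 over all genes with all 12 libraries. Differences of the size of that SE were not detectable for single members with 4 animals a group. Larger ones also went uncalled, such as CLDN11 at 1.48 ± 0.52 with all 12 libraries.

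In this comparison 2 members had CPM ranges that did not overlap, against 8.4% of all genes. They were CRYAB and ENPP2, both higher in each surfactant animal than in any unventilated one. CRYAB differed by 1.12 ± 0.41 (adjusted p = 0.218 in edgeR) and by 0.42 ± 0.26 without animal 051. ENPP2 differed by 0.58 ± 0.26 (adjusted p = 0.322) and by 0.13 ± 0.12 without it. TSPAN2 had the largest negative value, -0.52 ± 0.21, with adjusted p = 0.277. QDPR had the smallest unadjusted p once animal 051 was left out, with a difference of -0.40 ± 0.14 and adjusted p = 0.243 in edgeR.

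Surfactant with budesonide was compared with surfactant alone to ask what budesonide added. Of the 29 members, edgeR called 0, against 0.978% of all genes. An unadjusted p under 0.05 was found for 5, and DESeq2 and limma-voom with sample weights called 0. The difference was negative for 26 members, with a median of -0.82 against -0.01 over all genes. Without animal 051 the median was 0.04, the sign changed for 15 members, and edgeR called 0, against 0.883% of all genes, with 4 at an unadjusted p under 0.05. MBP moved from -1.39 ± 0.70 to 0.09 ± 0.44 on the log2 scale when that animal was left out.

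CRYAB and SOX10 were lower in every budesonide animal than in any surfactant animal, so ranges of 2 members did not overlap, against 7.6% of all genes. CRYAB had 14.7 ± 3.14 CPM (SD, n = 4) with budesonide and 37.8 ± 29.2 CPM with surfactant alone, a log2 difference of -1.36 ± 0.42 (adjusted p = 0.171 in edgeR). Without animal 051 it was -0.65 ± 0.26 with adjusted p = 0.366. SOX10 had 26.5 ± 2.43 CPM with budesonide and 45.2 ± 18.9 CPM with surfactant alone, a difference of -0.77 ± 0.24 (adjusted p = 0.195). Without animal 051 it was -0.43 ± 0.17 with adjusted p = 0.374 in edgeR. Both genes thus kept separate ranges and a negative sign, and neither passed the threshold.

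**Figure D4:**
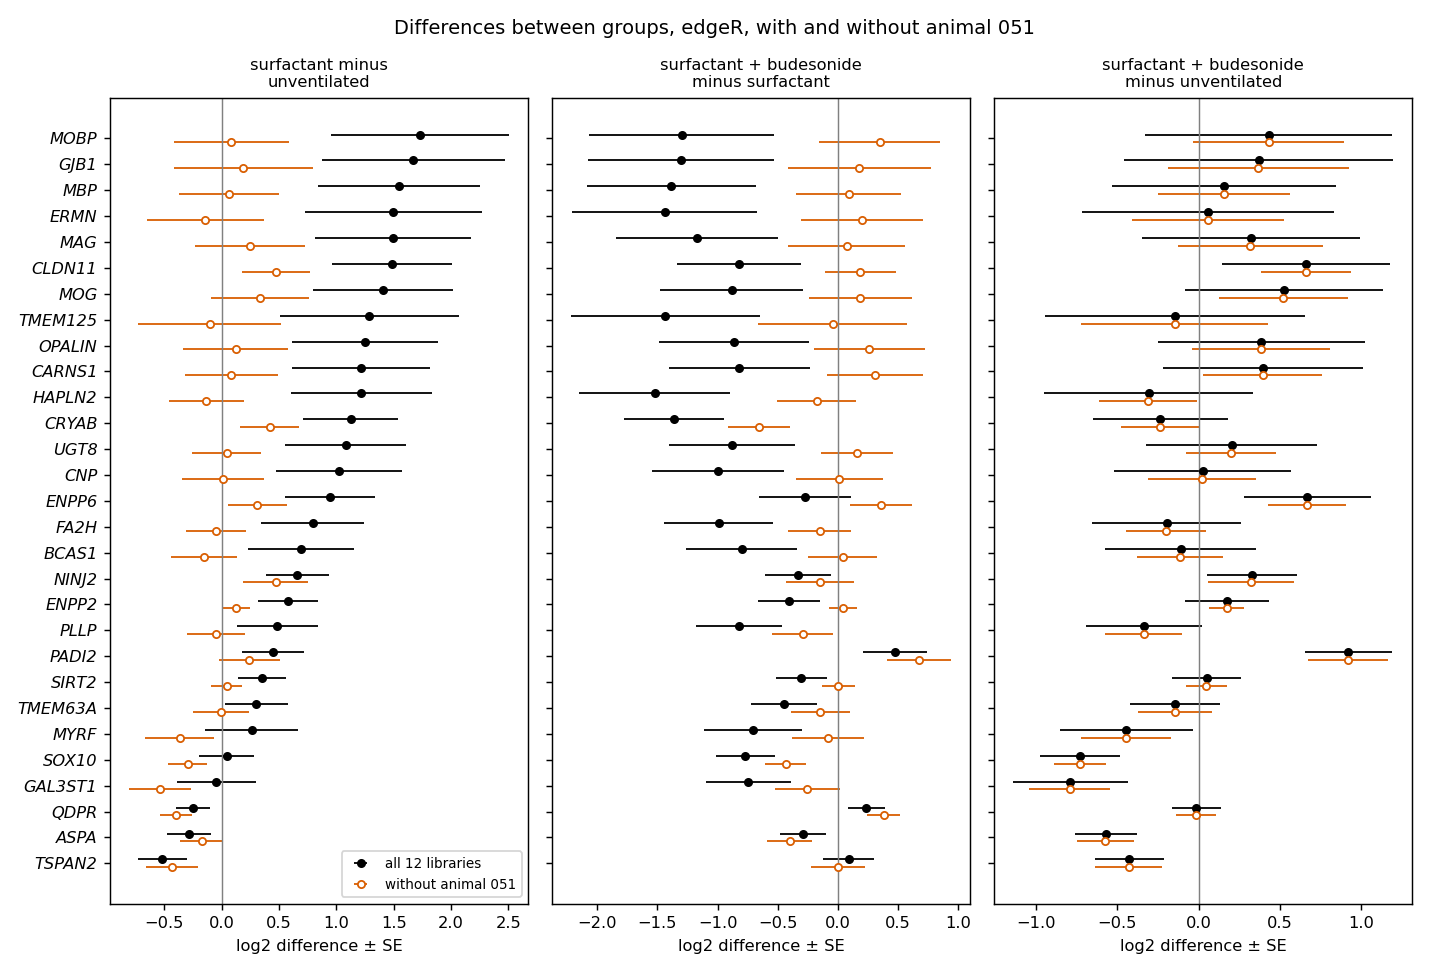
Log2 difference between groups for the 29 members tested in edgeR, with bars of 1 SE, with all 12 libraries (black) and without surfactant animal 051 (open). In both comparisons with the surfactant group most black points lie away from 0, and the open point is nearer to 0 for 25 of the 29 members. Medians on the left are 0.94 and 0.04. In the comparison of budesonide with unventilated animals the points of each pair nearly coincide.

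Budesonide animals were also compared with unventilated animals, a difference that joins ventilation, surfactant and budesonide. Animal 051 is in neither group and enters only through scaling and the shared estimate of spread. Of the 29 members, edgeR called 0, against 8.06% of all genes. An unadjusted p under 0.05 was found for 4, and DESeq2 and limma-voom with sample weights called 2 each. The median log2 difference was 0.05 against 0.01 over all genes, with 16 members positive and 13 negative. MBP had 633 ± 254 CPM in unventilated and 707 ± 271 CPM in budesonide animals (SD, n = 4 each), a log2 difference of 0.16 ± 0.69.

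PADI2 came closest to the threshold, followed by ASPA and SOX10, which both went in the opposite direction. PADI2 had 10.9 ± 0.707 CPM in unventilated and 20.6 ± 9.03 CPM in budesonide animals (SD, n = 4 each), a log2 difference of 0.92 ± 0.27 with adjusted p = 0.0526 in edgeR. SOX10 had 43.9 ± 10.8 and 26.5 ± 2.43 CPM, a difference of -0.73 ± 0.24 with adjusted p = 0.0938. ASPA had 9.52 ± 1.75 and 6.40 ± 0.588 CPM, a difference of -0.57 ± 0.19 with adjusted p = 0.0922. GAL3ST1 differed by -0.79 ± 0.35 with adjusted p = 0.211 in edgeR. Among members whose ranges did not overlap, PADI2 was above and ASPA below, against 17.2% of all genes in either direction.

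Leaving out animal 051 narrowed the estimated spread, and edgeR then called 2 members, against 8.81% of all genes. SOX10 fell by 0.73 ± 0.16 with adjusted p = 0.0144, and PADI2 rose by 0.92 ± 0.25 with adjusted p = 0.0374. The same pair was called by DESeq2, with adjusted p = 0.0357 for SOX10 and 0.0109 for PADI2. With gestational age as a covariate no member was called by edgeR, and 3 had an unadjusted p under 0.05. The edgeR count of 2 in 29 without animal 051 is no larger a share than that over all genes.

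Some genes of the other lineage lists passed the test. Of the 39 further myelin and oligodendrocyte genes, 3 rose with surfactant against unventilated and 0 fell, against 2.05% of all genes called, and the median was 0.40. That count ranged from 0 to 6 over the alternatives, with 0 when animal 049, 060 or 061 was left out, 1 without 054, 057 or 058, and 6 without animal 007. ELOVL7, which elongates very long chain fatty acids, had 22.2 to 33.3 CPM in unventilated animals, 32.3 to 56.4 CPM with surfactant and 68.9 to 79.9 CPM with budesonide. JAM3, a junction protein, had 46.0 to 60.7, 68.0 to 101 and 85.5 to 89.8 CPM. CD9, a tetraspanin, had 26.8 to 35.9, 41.9 to 93.2 and 39.1 to 50.1 CPM, in the same order of groups.

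Animal 051 was the highest of the surfactant group for all 3. In edgeR the differences of surfactant from unventilated were 0.79 ± 0.16 for ELOVL7 (adjusted p = 0.0235), 0.59 ± 0.12 for JAM3 (adjusted p = 0.0290) and 0.89 ± 0.21 for CD9 (adjusted p = 0.0465). These calls were kept under 10, 11 and 5 of the 19 alternatives, and ELOVL7 lost its call without animal 051 (adjusted p = 0.0613). All 3 calls were lost with gestational age or sex as a covariate, and with only the 2 groups compared. Between budesonide and unventilated animals 3 of these 39 genes rose and 1 fell, with a median of -0.01, a share near the 8.06% of all genes called. The count was 7 without animal 051 and 1 with gestational age as a covariate. ELOVL7 rose by 1.51 ± 0.16 (adjusted p = 9.3e-05 in edgeR), a call kept under all 19 alternatives. JAM3 rose by 0.74 ± 0.12 and SCD, the stearoyl-CoA desaturase, by 0.52, and both calls were lost with gestational age as a covariate. Between budesonide and surfactant, 0 of the 39 were called by edgeR, 12 had an unadjusted p under 0.05, and DESeq2 called 3.

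Between budesonide and unventilated animals, 2 of 18 precursor genes rose and 2 fell, a larger share than the 8.06% of all genes called, with a median of -0.12. With gestational age as a covariate 1 of the 18 was called. SOX6, which keeps precursors undifferentiated, had 53.4, 51.7, 61.8 and 61.2 CPM in unventilated, 47.0, 45.9, 42.5 and 43.6 CPM in surfactant and 37.2, 36.1, 32.7 and 32.1 CPM in budesonide animals. The 3 groups did not overlap, and the difference of budesonide from unventilated was -0.72 ± 0.08 with adjusted p = 0.00018 in edgeR, called under all 19 alternatives. CSPG5, a neuroglial proteoglycan, fell by 0.39 ± 0.07 and ABHD2, a lipase, rose by 0.51, both with the call lost on adding gestational age. PDGFRA differed by 0.15 ± 0.12 and OLIG2 by -0.22 ± 0.22, neither called.

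Of 20 committed stage genes, 1 rose and 2 fell between budesonide and unventilated animals, against 8.06% of all genes called, with a median of 0.09. With gestational age or sex as a covariate 1 was called. NKX2-2, a factor of precursors entering differentiation, had 14.6, 12.8, 8.65 and 12.1 CPM in unventilated and 10.9, 8.39, 9.57 and 12.6 CPM in surfactant animals. It had 7.03, 6.20, 6.64 and 6.23 CPM in budesonide animals, all below every other animal, and fell by 0.89 ± 0.17 (adjusted p = 0.00575 in edgeR). KIF19, a kinesin, fell by 1.25 ± 0.22 (adjusted p = 0.00388), and ITPR2, a calcium release channel of new oligodendrocytes, rose by 0.43 (adjusted p = 0.0331). NKX2-2 lost its call with sex as a covariate, KIF19 with gestational age, and ITPR2 kept its call under 11 of the 19 alternatives. In the other 2 comparisons edgeR called 0 genes of either list. At an unadjusted p under 0.05 each of these 2 comparisons had 6 precursor and 2 committed stage genes, and DESeq2, with the largest counts of the alternatives, called 4 and 1 with surfactant against unventilated and 2 and 1 with budesonide against surfactant.

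Genes known to restrain oligodendrocyte differentiation formed the lineage list with the most called members. Of 16 such genes, 8 fell and 0 rose between budesonide and unventilated animals, against 8.06% of all genes called, with a median of -0.49 on the log2 scale. NOTCH1, the receptor through which neighbouring cells hold precursors back, had 73.3, 67.3, 67.0 and 69.9 CPM in unventilated animals. It had 44.0, 36.9, 48.2 and 31.6 CPM in surfactant and 23.5, 24.6, 21.5 and 24.8 CPM in budesonide animals. The 3 groups stood apart with no overlap, and animal 051 had the lowest level of the surfactant group.

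NOTCH1 fell by 0.79 ± 0.11 with surfactant against unventilated (adjusted p = 0.00334 in edgeR) and fell by 0.77 ± 0.12 with budesonide against surfactant (adjusted p = 0.00806). Between budesonide and unventilated animals it fell by 1.56 ± 0.12 (adjusted p = 6.5e-06), called under all 19 alternatives. HES5, an effector of Notch that radial glia also express, had 18.8, 11.4, 18.4 and 20.1 CPM in unventilated, 11.1, 9.68, 7.41 and 5.12 CPM in surfactant and 5.17, 4.17, 5.60 and 3.71 CPM in budesonide animals. HES5 fell by 1.04 ± 0.24 with surfactant (adjusted p = 0.0426 in edgeR, kept under 6 of the 19 alternatives and lost without animal 051) and fell by 1.88 ± 0.25 between budesonide and unventilated animals (adjusted p = 0.000453). JAG1, a ligand of Notch, fell by 0.91 ± 0.16 in that last comparison. When gestational age was added as a covariate, 1 regulator was called there, namely NOTCH1, and with sex as a covariate 4 were. The call of NOTCH1 with surfactant against unventilated was also lost with that covariate, and with budesonide against surfactant when only those 2 groups were fitted (adjusted p = 0.0507).

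**Figure D5:**
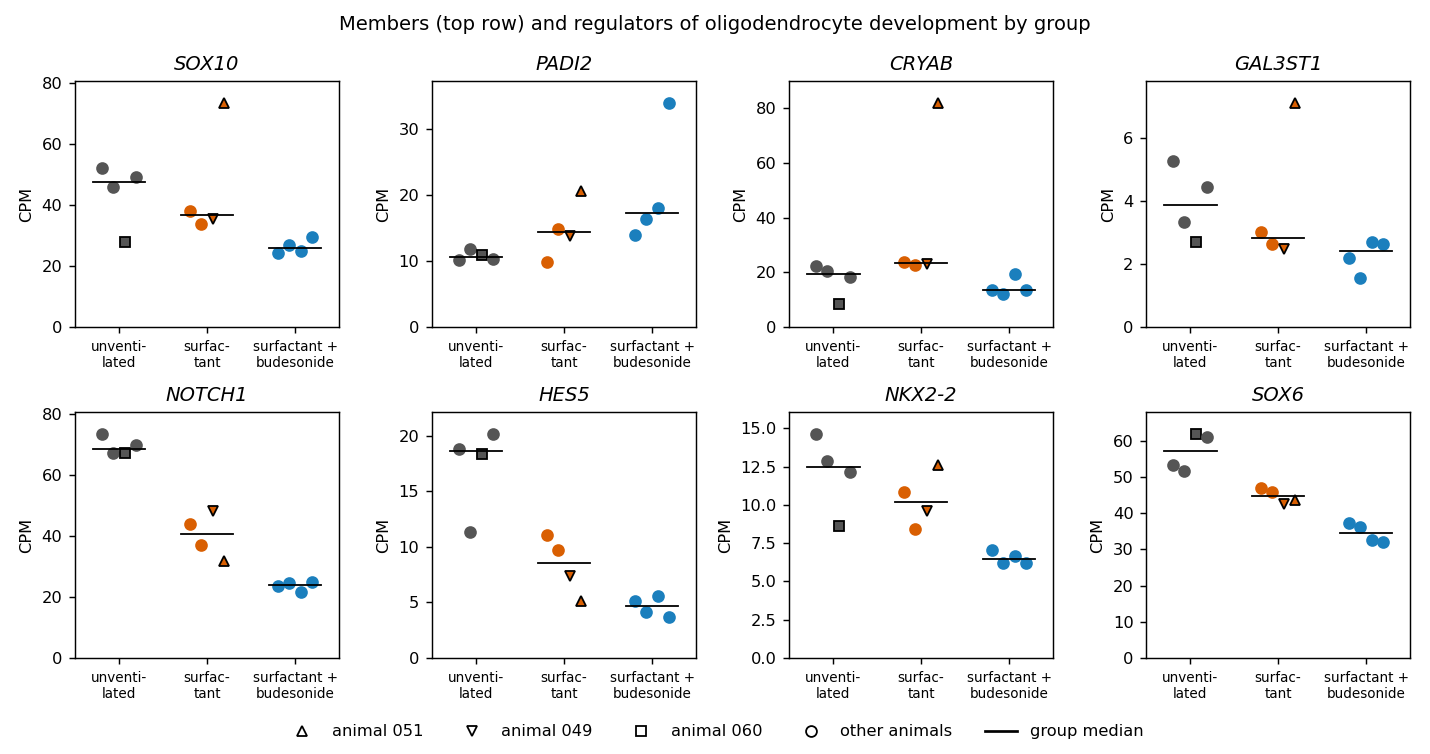
Level of 4 members (top row) and 4 regulators of the lineage (bottom row) in each PVWM library, in CPM on axes that start at 0; each point is 1 animal and bars are group medians. NOTCH1 falls from 67.0 to 73.3 CPM in unventilated to 21.5 to 24.8 CPM in budesonide animals without overlap, and SOX10 in budesonide animals lies below all surfactant animals.

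Other cell types changed beside these genes. Glucocorticoid-responsive genes, listed as a check of the treatment, rose in 8, 4 and 9 of 13 in the order surfactant against unventilated, budesonide against surfactant and budesonide against unventilated, against 2.05, 0.978 and 8.06% of all genes called. The 8 became 2 with gestational age as a covariate, 3 with sex and 5 without animal 061. The 4 became 1 with sex as a covariate or without animal 031 or 050, and 2 without animal 007, 032 or 054. FKBP5, a chaperone induced by glucocorticoids, rose by 3.03 on the log2 scale with surfactant against unventilated, where neither group received budesonide. It rose by a further 1.52 with budesonide against surfactant. Of 13 microglia genes, 4 fell with budesonide against surfactant and 6 fell and 1 rose against unventilated, CX3CR1 with log2 differences of -2.13 and -2.88. The 7 called against unventilated became 3 with gestational age as a covariate, and 4 with sex or without animal 031 or 048. That list summed to 278 to 294 CPM in unventilated, 231 to 315 CPM in surfactant and 129 to 162 CPM in budesonide animals. Of 12 astrocyte genes, 1 rose and 1 fell with surfactant, and 2 rose and 3 fell with budesonide, each against unventilated, where 2.05 and 8.06% of all genes were called. With gestational age as a covariate these counts were 1 and 2. GFAP, the astrocyte filament protein, rose by 1.45 and 1.53 in these comparisons. FGFR3, a receptor of astrocytes and their progenitors, fell by 0.58 (adjusted p = 0.0233 in edgeR) and 0.98 (adjusted p = 0.000254). The first of these FGFR3 calls was lost without animal 051 or any of 4 other libraries (032, 057, 058 and 061) and with gestational age or sex added, and the second was kept under all 19 alternatives. Of 10 radial glia and proliferation genes, 2 fell with surfactant and 3 with budesonide, each against unventilated, and 0 rose. Their medians were -0.19 and -0.02, so most of that list was not called. FABP7, a radial glia gene, fell by 0.61 and 1.13 in the same order. Its first call was kept under 13 of the 19 alternatives and lost with gestational age or sex added. The second was kept under all 19. The part of these cell types in the regulator values was not tested.

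In liver, most members are expressed outside oligodendrocytes or hardly at all. All 30 were in the liver table, 23 passed the filter and 7 were under 1 CPM in every liver: MOG, MOBP, OPALIN, ERMN, KLK6, HAPLN2 and SOX10. With surfactant against unventilated, edgeR called 5 members higher and 10 lower, against 41.1% of all genes in either direction. ENPP2 rose from 47.1 ± 7.58 to 128 ± 15.6 CPM (SD, n = 4 each), a log2 difference of 1.45 ± 0.15 (adjusted p = 2.8e-05 in edgeR). PADI2 rose by 2.04 ± 0.58 and TSPAN2 by 1.06 ± 0.23. QDPR fell by 2.33 ± 0.26, BCAS1 fell by 2.82 ± 0.36 and GJB1, which links hepatocytes, fell by 2.03 ± 0.51. With budesonide against surfactant 0 rose and 3 fell, against 11.9% of all genes: the log2 difference was -2.65 ± 0.48 for MAG, -1.70 ± 0.24 for TSPAN2 and -0.98 ± 0.25 for MYRF. Animal 051 was highest in liver for 4 of the 23 members tested and lowest for 4. The difference between tissues was not tested.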

How the data were processed

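Gene counts of 12 PVWM and 12 liver libraries were used as deposited by the authors, in whole numbers. Bowtie2, featureCounts and edgeR were used per the submitters' processing notes. Versions, genome build and strand setting are not given in the sources used here, so reads of overlapping or antisense genes cannot be told apart. Per the labels' protocols, RNA was poly-A selected. Groups, ages, sexes and animal numbers came from the labels.

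Members and gene lists were chosen with earlier results of these data known, and the lists were compiled from general knowledge. All members are named. From each further list, up to 3 called genes with the smallest adjusted p per comparison could be named, plus OLIG1, OLIG2, PDGFRA and GPR17, and 1 gene that is not reported here. The rule admits more genes than are described, mainly from lists of other cell types. The MAL locus was added after its values were seen.

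In R 4.3.3, edgeR 4.0.16 (filterByExpr, trimmed mean of M values, robust quasi-likelihood test) was fitted to the 3 groups of each tissue, with 18616 PVWM and 16824 liver genes tested. Calls needed a p under 0.05 after Benjamini-Hochberg adjustment across every gene tested in that comparison. The SE was obtained as the size of the log2 difference over the root of its F statistic. Log2 values per library used a prior count of 2. Alternatives used limma 3.58.1 and DESeq2 1.42.0, in which an adjusted p given as NA was left out. The tests were run on simulated data beforehand. With 4 animals a group, each p-value sets a difference between groups against the spread between these animals. In the main fit that spread was estimated over the 3 groups together, with information shared across genes. Liver totals were 16.1 to 23.2 M counts, M standing for 1e6.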

Additional observations from a re-analysis of the deposited data

Results flagged for a closer look

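In each group of 4 animals, the CPM of each member was checked for 1 animal standing far from the other 3, by Dixon's ratio of gap to range. Of 90 such groups, 21 held one. Surfactant animal 051, known to be high when the members were chosen, was the high animal in 17 of them, so these 17 describe that library and support nothing further. Chance alone flags about 1 in 20 groups. They were MBP at 5390.2 CPM with the next surfactant animal at 942, MOBP at 3302 with 533, MAG at 344 with 76.1, and CLDN11 at 577 with 129. ERMN had 92.4 CPM with the next at 14.9, HAPLN2 11.7 with 2.06, and GJB1 7.61 with 1.35. Among lipid genes they were UGT8 at 293 CPM, ENPP2 at 124, ENPP6 at 162 and GAL3ST1 at 7.11. The others were BCAS1 at 658 CPM, TMEM125 at 18.3, KLK6 at 18.7, CARNS1 at 6.24, CRYAB at 81.6 and SOX10 at 73.3.

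Unventilated animal 060 was far below its group for MBP, at 254 CPM with the next at 736, and for MOBP, at 106 CPM with the next at 380.0. Budesonide animal 048 was low for GJB1, at 0.406 CPM with the next at 1.19. Budesonide animal 031 was high for KLK6, at 0.581 CPM or 10 counts. These members share animals and are not independent of each other.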

How the results depend on the processing

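No paired analysis was possible because each animal belonged to 1 group and gave 1 PVWM library. The 19 alternatives were other scaling, no filter, DESeq2, limma-voom with sample weights, only the 2 groups compared, gestational age, sex, and leaving out each of the 12 libraries. With 4 animals a group and 1 animal far above the rest, changes near or below the SE given for each member were not detectable. Changes well above the SE also went uncalled, such as CRYAB at -1.36 ± 0.42 for budesonide against surfactant. Low members such as GJB1 and KLK6 rest on few counts. Gestational age is nearly confounded with ventilation. The counts of members called stayed at 0 for budesonide against surfactant under all 19. For surfactant against unventilated they ranged from 0 to 1 with each library left out, the 1 being NINJ2 (0.90) without animal 032. For budesonide against unventilated they ranged from 0 to 2, and were 2 under DESeq2 (PADI2 and SOX10), 2 with only those groups (SOX10 and ASPA) and 2 with limma-voom (PADI2 and SOX10). In liver, budesonide against surfactant gave 6 under DESeq2 and 2 to 6 with a library left out, the 6 without animal 051.

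The remaining values are log2 differences that changed sign, and none of them passed the threshold in either fit. With 1 library left out, surfactant against unventilated ranged over FA2H -0.0499 to 1.05, ERMN -0.14 to 1.86, MYRF -0.37 to 0.51, GAL3ST1 -0.54 to 0.12, BCAS1 -0.16 to 0.95, PLLP -0.047 to 0.72, TMEM125 -0.10 to 1.66, HAPLN2 -0.13 to 1.52, TMEM63A -0.0034 to 0.41, SOX10 -0.30 to 0.15, GPR17 -0.21 to 0.052 and LOC101115527 -0.48 to 0.23. With 1 library left out, budesonide against surfactant ranged over MBP -1.74 to 0.0902, MOG -1.22 to 0.19, MAG -1.52 to 0.073, MOBP -1.67 to 0.35, CNP -1.32 to 0.013, CLDN11 -1.07 to 0.19, UGT8 -1.18 to 0.16, OPALIN -1.21 to 0.26, ERMN -1.81 to 0.20, TSPAN2 -0.083 to 0.31, ENPP2 -0.53 to 0.045, ENPP6 -0.49 to 0.36, GJB1 -1.69 to 0.18, BCAS1 -1.06 to 0.042, SIRT2 -0.43 to 0.0034, CARNS1 -1.13 to 0.31, GPR17 -0.075 to 0.19 and LOC101115527 -0.63 to 0.079. With 1 library left out, budesonide against unventilated ranged over MBP -0.11 to 0.36, CNP -0.21 to 0.17, UGT8 -0.0085 to 0.37, ERMN -0.24 to 0.26, BCAS1 -0.33 to 0.0097, QDPR -0.076 to 0.053, SIRT2 -0.043 to 0.15, TMEM125 -0.48 to 0.13, TMEM63A -0.34 to 0.0054 and GPR17 -0.13 to 0.0497. With gestational age added, surfactant against unventilated was -0.16 for SOX10 and 0.12 for LOC101115527. For this fit, budesonide against unventilated was -0.19 for MBP, -0.023 for MAG, -0.015 for MOBP, -0.22 for CNP, -0.089 for UGT8, -0.43 for ERMN and 0.0082 for QDPR. With sex added, surfactant against unventilated was 0.099 for GAL3ST1, 0.067 for GPR17 and 0.12 for LOC101115527. For this fit, budesonide against unventilated was 0.11 for BCAS1, 0.013 for QDPR, 0.12 for TMEM125, 0.083 for OLIG2 and 0.099 for GPR17. With limma-voom, surfactant against unventilated was -0.056 for MYRF and -0.12 for SOX10. For this fit, budesonide against surfactant was 0.11 for ENPP6. For this fit, budesonide against unventilated was 0.034 for TMEM125.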
